A study of Mus musculus with 8 samples.

Results

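The nuclear-encoded respiratory chain subunits were taken from the gene table by name. A gene entered if its symbol began with Ndufa, Ndufb, Ndufc, Ndufs or Ndufv and a number, with Ndufab1, with Sdha to Sdhd, with Uqcr or Cyc1, with Cox4 to Cox8, or with Atp5, and symbols marked as pseudogenes (-ps) or holding a Gm number were left out. This gave 93 genes of the 33249 in the table. Of these, 85 encode subunits of the chain: 36 of complex I, 4 of complex II, 9 of complex III, 19 of complex IV and 17 of complex V. The other members were 4 assembly factors of complex II (Sdhaf1 to Sdhaf4) and 4 processed pseudogenes (Cox6c2, Ndufa11b, Ndufb4c and Ndufs6b). Ndufa4 and Ndufa4l2 carry complex I names and were counted with complex IV, where the Ndufa4 protein resides. Ndufb1-ps, annotated as protein coding, was left out by the rule.

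The study set mice with a cardiomyocyte deletion of the mechanosensitive channel Piezo1 against littermates, after myocardial infarction (MI) or sham surgery. The 8 libraries of myocardium fall into 4 groups of 2. The groups labelled fl/fl-Sham and fl/fl-MI carry floxed Piezo1 without Cre. The groups labelled CKO-Sham and CKO-MI carry the same floxed alleles and Myh6-Cre/Esr1, a tamoxifen-inducible Cre driven by a cardiomyocyte promoter, so the other cells of the heart keep Piezo1. Tamoxifen was given for 5 days to mice aged 4 weeks. Surgery followed at 8 weeks, with permanent ligation of the left anterior descending artery in the MI groups. MI hearts were taken at day 42. Whether the fl/fl mice received tamoxifen, and how many animals entered a library, are not given in the sources used here. No library carried Cre without floxed Piezo1. Nothing in the labels ties libraries to separate animals, so the p-values below measure the spread between these libraries.

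The respiratory chain is a set of protein complexes in the inner mitochondrial membrane. Complex I (NADH dehydrogenase) and complex II (succinate dehydrogenase) feed electrons to ubiquinone, complex III passes them to cytochrome c, complex IV (cytochrome c oxidase) reduces oxygen, and complex V (ATP synthase) uses the resulting proton gradient to make ATP. Most subunits are encoded in the nucleus and imported, while a small set, including the catalytic core of complex IV, is encoded in mitochondrial DNA. Heart muscle depends on this pathway for nearly all of its ATP and uses muscle-specific forms of several subunits.

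Depth ranged from 73821747 to 88117573 deposited counts per library. The share of counts from the mitochondrial genome ran from 43.1% to 46.4% in sham hearts and from 19.9% to 24.2% after MI. The 93 members took 2.50% to 3.19% of the remaining counts in sham and 1.69% to 2.52% in MI. Levels below are edgeR CPM after TMM scaling, the count of a gene relative to the scaled library total. Piezo1 read 72.2 and 82.0 CPM where the label was fl/fl-Sham, 76.7 and 88.3 for CKO-Sham, 53.5 and 64.8 in fl/fl-MI, and 56.3 and 64.6 in CKO-MI. The Piezo1 level over the whole gene was thus no lower in the libraries labelled CKO. The difference between CKO and fl/fl was 0.10 ± 0.16 (SE) on the log2 scale in sham and 0.03 ± 0.16 in MI. A count over the whole gene does not separate the floxed exons from the rest, so it does not check the deletion.

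Per transcript length, complex V had the highest median level of the 5 complexes in the sham hearts. Levels in this paragraph are FPKM summed over a gene's transcripts. Atp5b, the catalytic beta subunit of ATP synthase, led with 985 ± 166 FPKM (SD, n = 4 sham libraries). Cox4i1, the common form of the largest nuclear-encoded subunit of complex IV, followed with 780 ± 116, and Atp5a1, the alpha subunit of ATP synthase, with 554 ± 87.9. Atp5b and Cox4i1 differed by less than the sum of their SDs, and Atp5a1, Atp5h (529 ± 101) and Atp5g3 (523 ± 62.7) did not differ beyond their spread. At the other end stood Ndufc1 (17.6 ± 5.16), Cox4i2 (10.2 ± 1.08) and Cox6b2 (1.09 ± 0.24). The median subunit of complex I was at 88.4 FPKM, against 118 in complex II, 156 in complex III, 108 in complex IV and 222 in complex V.

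After MI, the mRNAs of most subunits fell. A mean FPKM of 0.5 or more was reached by 14028 genes, of which 84 were subunits, and all counts of calls below are over genes tested in this way. Comparing the 4 MI with the 4 sham libraries as the mean of both genotypes, 63 of the 84 subunits were lower and 2 were higher at an adjusted p under 0.05 (edgeR quasi-likelihood test, Benjamini-Hochberg over all genes tested). Over all genes tested, 18.3% were called lower and 22% higher. The median log2 fold change was -1.04 for the subunits, a level 0.486 times that in sham, and 0.03 for all genes tested. On log2 (TPM + 1) the subunit median was 0.07 and that of all genes 0.92, so the direction held only relative to other genes. By complex, 29 of 36 subunits fell in complex I, 1 of 4 in complex II, 5 of 9 in complex III, 16 of 18 in complex IV and 12 of 17 in complex V. The medians were -1.09, 0.05, -1.01, -1.20 and -1.05, respectively. The 2 that rose were Ndufs1 in complex I and Sdha in complex II, and 19 subunits did not pass the test. All 4 MI libraries lay below all 4 sham libraries for 62 subunits, against 19.5% of all genes tested, and above them for 1, against 20.9%. Of 19 tested genes listed as catalytic or core subunits 7 fell and 2 rose (median -0.35), and of 17 listed as isoforms 14 fell and none rose (-1.08).

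**Figure D1:**
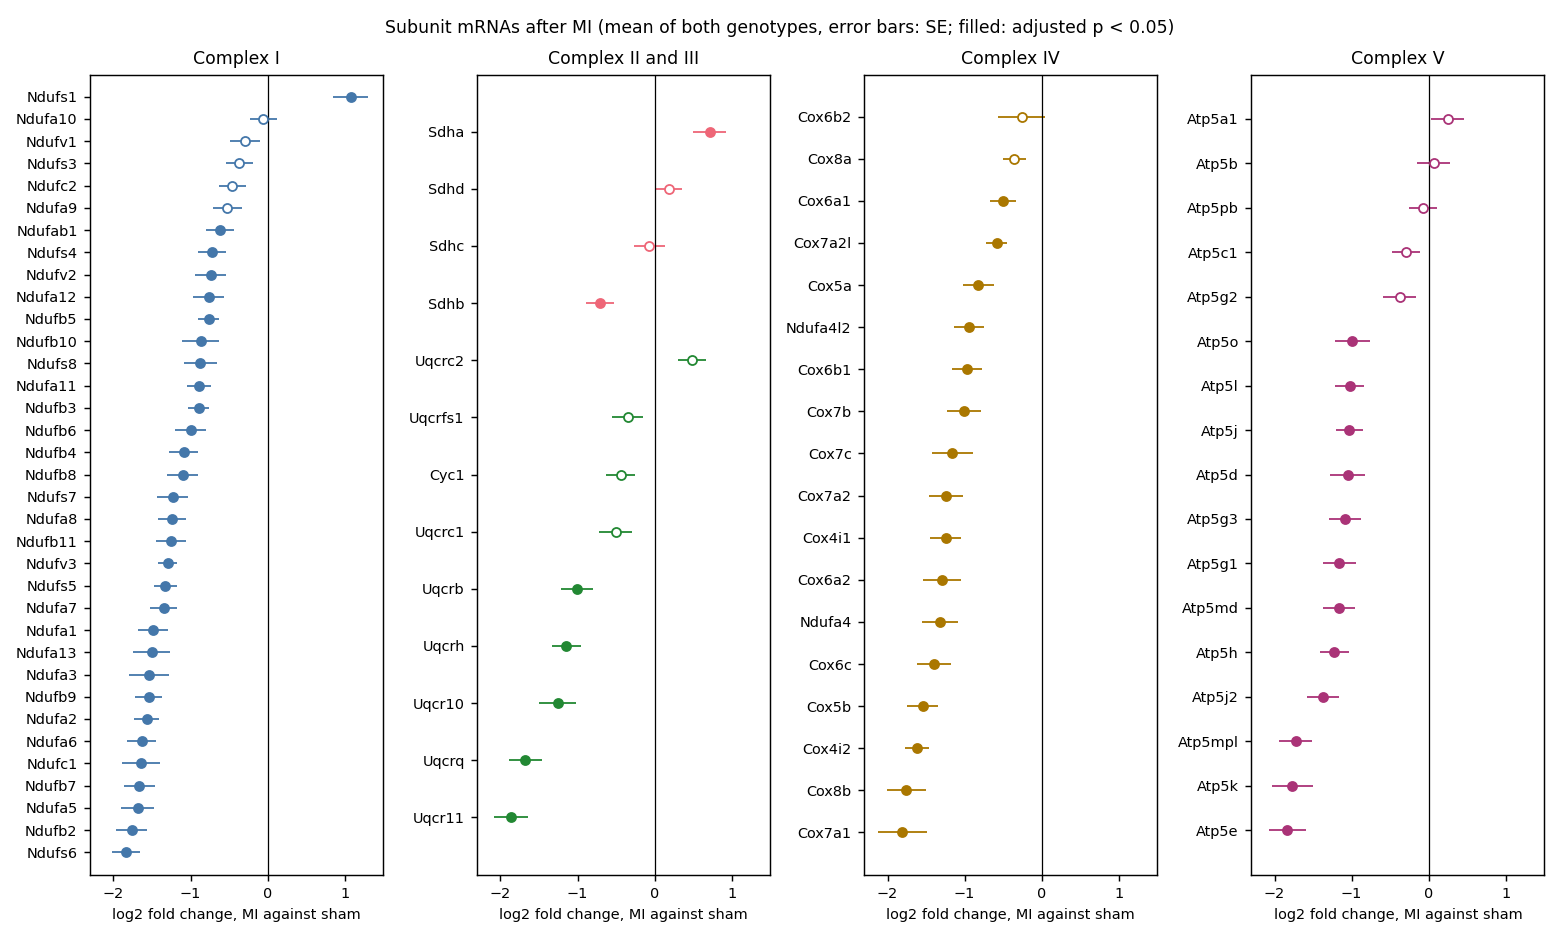
Log2 fold change of the tested subunit mRNAs reported here, MI against sham as the mean of both genotypes, with its SE as a horizontal bar. Genes are rows, ordered within each complex, and filled points passed an adjusted p of 0.05. Most points of complexes I, III, IV and V sit left of 0, while complex II straddles it and Ndufs1 stands alone at 1.08 in complex I.

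**Figure D2:**
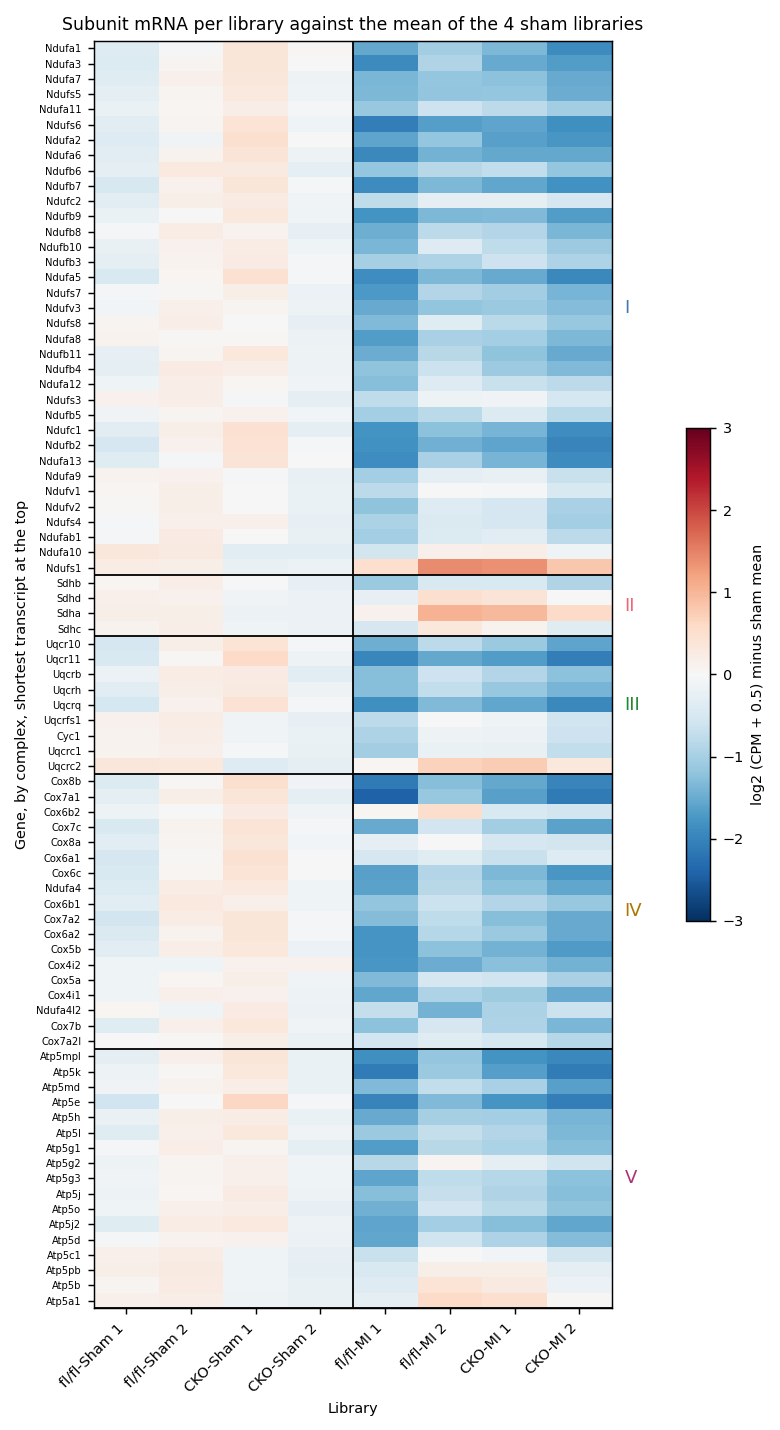
Subunit mRNA reported here in each of the 8 libraries as log2 (CPM + 0.5) minus the mean of the 4 sham libraries (colour). Rows are genes grouped by complex, with the shortest transcript at the top of each group. The MI columns are blue for most rows, palest in fl/fl-MI 2 and CKO-MI 1, and the lowest rows of complexes I, II, III and V stay pale or turn red.

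In complex I the nuclear-encoded core subunits, which accept electrons from NADH and pass them along, differed in direction. Ndufs1, the largest of them and an iron-sulfur protein of the arm that accepts electrons from NADH, read 221 and 215 CPM in fl/fl-Sham, 164 and 170 in CKO-Sham, 270 and 511 in fl/fl-MI, and 491 and 335 in CKO-MI. Every MI library was above every sham library, with fl/fl-MI 1 closest to the sham range. The log2 fold change was 1.08 ± 0.22 (SE, adjusted p = 0.00966, edgeR). Ndufv1, which binds FMN and NADH, changed by -0.29 ± 0.20 (adjusted p = 0.263). Ndufs3 also did not pass the test (-0.37 ± 0.17, adjusted p = 0.129). The other core subunits with iron-sulfur clusters that were tested fell, with log2 fold changes of -1.23 for Ndufs7, -0.87 for Ndufs8 and -0.74 for Ndufv2. The calls of Ndufs8 and Ndufv2 were lost, with adjusted p between 0.05 and 0.09, in several fits that left out 1 library.

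The accessory subunits of complex I, which surround the core and are needed for assembly or stability, showed the largest decreases. Ndufs6, a zinc-binding accessory subunit, read 44.4 and 59.6 CPM in fl/fl-Sham, 74.8 and 51.9 in CKO-Sham, 13.0 and 17.5 in fl/fl-MI, and 18.5 and 15.4 in CKO-MI. The groups did not overlap, and the log2 fold change was -1.84 ± 0.18 (adjusted p = 0.000887, edgeR). Ndufb2, an accessory subunit of the membrane arm, read 30.5, 47.7, 58.7 and 42.1 CPM in the sham libraries in the same order and 11.9, 15.6, 14.1 and 10.7 in the MI libraries (-1.76 ± 0.21, adjusted p = 0.0013). Ndufa5, an accessory subunit of the peripheral arm, fell as well (-1.69 ± 0.21, adjusted p = 0.00163). Ndufa10, another accessory subunit, was an exception. It read 289 and 277 CPM in fl/fl-Sham, 184 and 184 in CKO-Sham, 157 and 255 in fl/fl-MI, and 261 and 208 in CKO-MI, so that the MI libraries lay within the sham range but for fl/fl-MI 1 below it (-0.06 ± 0.17, adjusted p = 0.815).

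In complex II, the only complex with no mitochondrially encoded subunit, 1 subunit fell and 1 rose. Sdha, the flavoprotein that oxidizes succinate, read 514 and 513 CPM in fl/fl-Sham, 402 and 398 in CKO-Sham, 493 and 933 in fl/fl-MI, and 886 and 672 in CKO-MI. The fl/fl-MI 1 library lay within the sham range and the other 3 MI libraries above it. The log2 fold change was 0.72 ± 0.21 (adjusted p = 0.0344, edgeR), and the call was lost without any 1 of 6 libraries (adjusted p 0.0522 to 0.112). Sdhb, the iron-sulfur subunit, read 440, 489, 420 and 358 CPM in sham and 197, 310, 308 and 227 in MI, with no overlap (-0.71 ± 0.18, adjusted p = 0.0216), a call lost without any 1 of 5 libraries (adjusted p 0.0501 to 0.0819). The membrane anchors Sdhc (-0.07 ± 0.20, adjusted p = 0.799) and Sdhd (0.18 ± 0.18, adjusted p = 0.457) did not pass. Of the 4 complex II assembly factors, Sdhaf1 fell (-0.69 ± 0.17, adjusted p = 0.0177) and the others did not pass the test.

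In complex III 5 of 9 subunits fell, and their mean transcript lengths ran from 441 to 1327 bases, against 1363 to 1891 for the 4 that did not pass. Uqcr11, the smallest, read 48.7 and 69.7 CPM in fl/fl-Sham, 100 and 61.1 in CKO-Sham, 17.0 and 22.8 in fl/fl-MI, and 20.6 and 15.8 in CKO-MI (-1.86 ± 0.22, adjusted p = 0.00135, edgeR), the lowest value of all subunits tested. Uqcrq, which contacts cytochrome b, read 175, 274, 337 and 243 CPM in sham and 69.8, 99.5, 85.3 and 65.5 in MI (-1.68 ± 0.22, adjusted p = 0.00184). Uqcr10 (-1.26), Uqcrh, the hinge protein (-1.15), and Uqcrb (-1.01) fell too. The subunits that carry electrons did not pass the test: Cyc1, cytochrome c1, changed by -0.44 ± 0.19 (adjusted p = 0.107) and Uqcrfs1, the Rieske iron-sulfur protein, by -0.35 ± 0.20 (adjusted p = 0.198). Of the core proteins, Uqcrc1 changed by -0.51 ± 0.22 (adjusted p = 0.1). Uqcrc2 read 392 and 388 CPM in fl/fl-Sham, 238 and 257 in CKO-Sham, 325 and 506 in fl/fl-MI, and 524 and 386 in CKO-MI (0.48 ± 0.18, adjusted p = 0.0639).

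In complex IV all 18 tested subunits had a log2 fold change under 0 in the count model, and only Cox6b2 and Cox8a (-0.36 ± 0.15, adjusted p = 0.0918) did not pass the test. Cox4i1 read 657 and 808 CPM in fl/fl-Sham, 796 and 646 in CKO-Sham, 245 and 383 in fl/fl-MI, and 348 and 252 in CKO-MI (-1.24 ± 0.20, adjusted p = 0.00388, edgeR). The MI libraries did not overlap the sham libraries. Cox5a (-0.82) and Cox5b, a zinc-binding subunit (-1.54), fell. The call of Cox5a was lost without CKO-MI 2, CKO-Sham 1 or fl/fl-Sham 2 (adjusted p 0.0606 to 0.0696). Cox6a1, the common form of subunit VIa, was just under the threshold (-0.50 ± 0.16, adjusted p = 0.0469, edgeR), and its call was lost without any 1 of 6 libraries (adjusted p 0.0504 to 0.161), with the replicate block (0.0654) and with no filter (0.0935). Muscle forms of 2 subunits had the lowest log2 fold changes of the complex. Cox7a1, the heart and skeletal muscle form of subunit VIIa, read 39.8 and 55.6 CPM in fl/fl-Sham, 63.2 and 40.7 in CKO-Sham, 8.72 and 21.9 in fl/fl-MI, and 15.5 and 10.9 in CKO-MI (-1.81 ± 0.32, adjusted p = 0.0055). Cox8b, the muscle form of subunit VIII in mice, read 26.5, 36.4, 49.4 and 32.9 CPM in sham and 7.79, 14.4, 11.8 and 8.63 in MI (-1.76 ± 0.25, adjusted p = 0.00263). Ndufa4 (-1.31) and its relative Ndufa4l2, which hypoxia is known to induce (-0.95), fell. Cox6b2, the testis form of subunit VIb, stayed between 0.33 and 1.26 CPM in all libraries, and Cox8c, also known from testis, did not pass the filter (mean FPKM 0.0508).

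In complex V the alpha and beta subunits of the catalytic head did not pass the test, while 12 of its 17 subunits fell. Atp5b read 2477 and 2775 CPM in fl/fl-Sham, 2142 and 1985 in CKO-Sham, 1779 and 3071 in fl/fl-MI, and 2802 and 2070 in CKO-MI (0.06 ± 0.21, adjusted p = 0.834, edgeR). The MI libraries spread around the sham range, and so they did for Atp5a1 (0.25 ± 0.22, adjusted p = 0.395). Atp5c1, the gamma subunit that turns inside the head, changed by -0.30 ± 0.18 (adjusted p = 0.232) and Atp5pb, subunit b of the peripheral stalk, by -0.07 ± 0.18 (adjusted p = 0.761). Atp5e, the epsilon subunit of the central stalk, read 40.3 and 61.3 CPM in fl/fl-Sham, 94.5 and 59.2 in CKO-Sham, 14.9 and 23.9 in fl/fl-MI, and 17.6 and 14.0 in CKO-MI (-1.84 ± 0.24, adjusted p = 0.00193). Atp5k (-1.77) and Atp5mpl (-1.73), small membrane subunits, fell, as did Atp5d, the delta subunit of the central stalk (-1.05), and Atp5o, which joins the head to the peripheral stalk (-0.99). Of the 3 genes for the proton-carrying c ring, Atp5g1 (-1.16) and Atp5g3 (-1.08) fell, and Atp5g2 did not pass (-0.38 ± 0.21, adjusted p = 0.191).

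The change followed transcript length. Across the 84 subunits, Spearman's rho between the log2 fold change after MI and the mean transcript length was 0.62, and across all 14028 genes tested it was 0.25, in both cases a description across genes of the same libraries. Of the 33 subunits with transcripts up to 700 bases, 30 fell and the median was -1.29, against 23.7% called lower and a median of -0.41 for all genes of that length. Among the 29 subunits over 700 and up to 1200 bases, 26 fell and the median was -1.03, against 28.7% and -0.28 for all genes of that length. Among the 22 longer ones, 7 fell and 2 rose, with a median of -0.35, against 16.6% called lower and a median of 0.09. The subunit medians were thus below those of all genes in each length class. The class over 1200 bases was not matched for length. Its longest subunit transcript had 3101 bases, while the longest of 30 bins of all genes had a median length of 9312. Bins of all genes with median lengths of 1243 to 1944 bases had median log2 fold changes of -0.12 to 0.02. With a length trend removed from each library, an analysis added after the data were seen, 55 subunits fell and 1 rose (Ndufs1, 1.04, adjusted p = 0.0134), against 17.7% of all genes lower and 20.1% higher, and the median was -0.69. Complex II then had no subunit called, with Sdha at an adjusted p of 0.0525 and Sdhb at 0.0577 (edgeR). Other calls lost included those of Ndufs8 (adjusted p = 0.0586), Cox7a2l (0.0578), Cox5a (0.0777) and Cox6a1 (-0.06, adjusted p = 0.777). The log2 fold change was then -1.40 for Ndufs6 (570 bases), -0.88 for Cox4i1 (743 bases) and 0.11 for Atp5b (1905 bases). What sets the length trend was not tested.

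**Figure D3:**
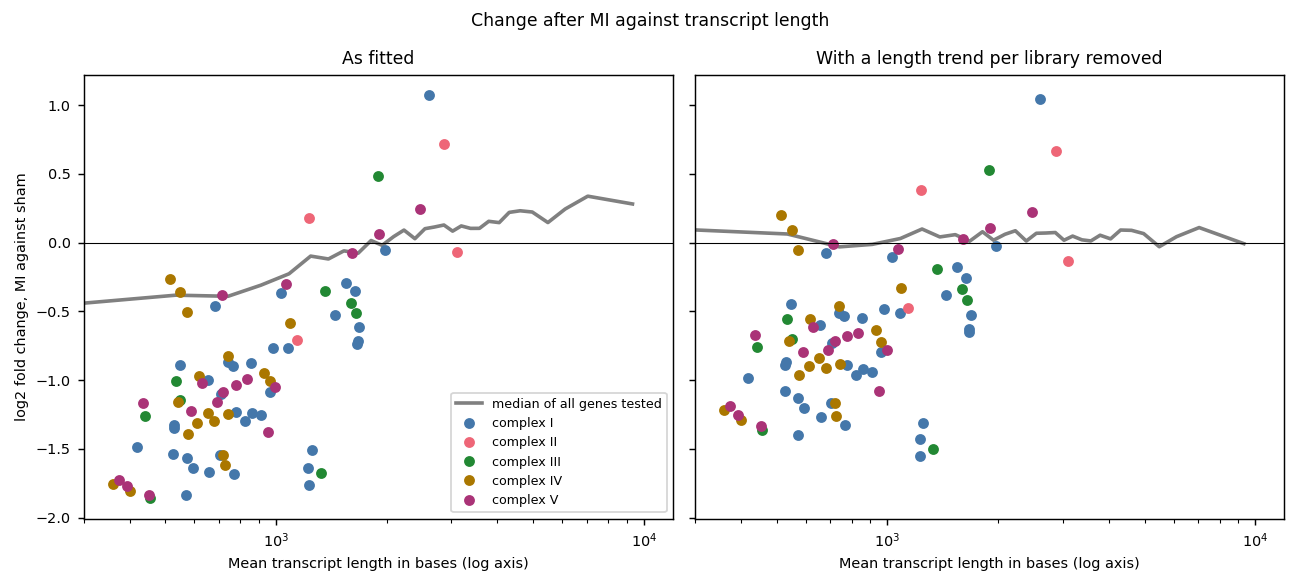
Log2 fold change of each tested subunit, MI against sham, over its mean transcript length in bases (log axis), as fitted (left) and with a length trend per library removed (right). The grey line is the median of all genes tested in 30 length bins. Most points up to 1200 bases lie below the line in both panels, and long transcripts such as Ndufs1 and Sdha lie above it.

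The scale on which the libraries were compared also moved the values. In the deposited FPKM per gene, the summed level of complex I was 2358 ± 315 in sham and 1815 ± 234 in MI (SD, n = 4 libraries each), a ratio of 0.770. For complex IV it was 1766 ± 356 and 1150 ± 157, a ratio of 0.651. Complex III gave 1080 ± 157 and 1013 ± 146 (0.938), complex V 2171 ± 289 and 2442 ± 399 (1.12), and complex II 402 ± 54.2 and 597 ± 97.9 (1.49). On the CPM scale the same sums gave MI-to-sham ratios of 0.625 for complex I, 1.10 for complex II, 0.718 for complex III, 0.449 for complex IV and 0.847 for complex V. In FPKM summed over transcripts, complex V was at 5172 ± 720 in sham and 5127 ± 808 in MI, a ratio of 0.991. In TPM the ratios were 1.14 for complex I, 1.39 for complex III and 1.66 for complex V. The side of sham on which complexes I, III and V lay thus changed with the unit. The median of all genes tested rose by 0.41 on log2 (FPKM + 1) and by 0.92 on log2 (TPM + 1), against 0.03 in the count model. With each library centred on its median log2 (TPM + 1), a fit added after the data were seen, 62 subunits fell and 3 rose, with a median of -0.91, against 24.6% of all genes lower and 19.9% higher.

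Several subunits exist as a muscle form and a form used in most tissues. Ratios were taken for 7 pairs of isoform genes, of which the Cox6a, Cox7a and Cox8 pairs set a muscle form against a common one. In 4 of the 7 pairs the ratio did not overlap between sham and MI. Shares of a pair are given in FPKM summed over transcripts, and the log2 ratios and their p are of the deposited FPKM per gene, so the shares do not convert into the ratios. Cox8b made up 61.7% to 65.1% of the pair with Cox8a in the sham libraries and 31.2%, 41.0%, 44.8% and 37.6% in fl/fl-MI 1, fl/fl-MI 2, CKO-MI 1 and CKO-MI 2. The log2 ratio differed by -1.43 (0.93 ± 0.09 in sham and -0.50 ± 0.36 in MI, SD, n = 4 each, exact two-sided permutation p = 0.0286). Cox7a1 held 41.0% to 49.5% of the pair with Cox7a2 in sham and 26.5% to 38.7% in MI, a log2 change of -0.64. Cox6a2, the muscle form of subunit VIa, held 87.4% to 88.6% of the pair with Cox6a1 in sham and 75.5% to 84.4% in MI (-0.83). For the c ring of ATP synthase, Atp5g1 held 82.9% to 85.9% of the pair with Atp5g2 in sham and 72.9% to 76.2% in MI (-0.78). With ratios of FPKM summed over transcripts, computed after the data were seen, the differences of these 4 pairs in the same order were -1.43, -0.66, -0.83 and -0.89, and again did not overlap between sham and MI. On both scales each of these ratios had an exact permutation p = 0.0286, the smallest that 4 against 4 libraries can give, and an adjusted p of 0.05 over the 7 ratios, which does not pass under 0.05.

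The other 3 ratios overlapped between sham and MI. Cox4i2, a form of Cox4 found mainly in lung and in oxygen-sensing cells, held 1.06% to 1.58% of its pair with Cox4i1 in sham and 0.792% to 1.26% in MI (exact permutation p = 0.0571, adjusted p = 0.08). Ndufa4l2 against Ndufa4 and Atp5g1 against Atp5g3 had p of 0.4 and 0.371. Length differs within most pairs, with Cox8b at 360 and Cox8a at 550 bases, Cox7a1 at 400 and Cox7a2 at 654. In the pair Cox6a2 (680 bases) and Cox6a1 (572 bases) the longer transcript lost share, and Atp5g1 (691 bases) and Atp5g2 (713 bases) are close in length. The part of length, and that of other cell types using the common forms, was not tested.

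**Figure D4:**
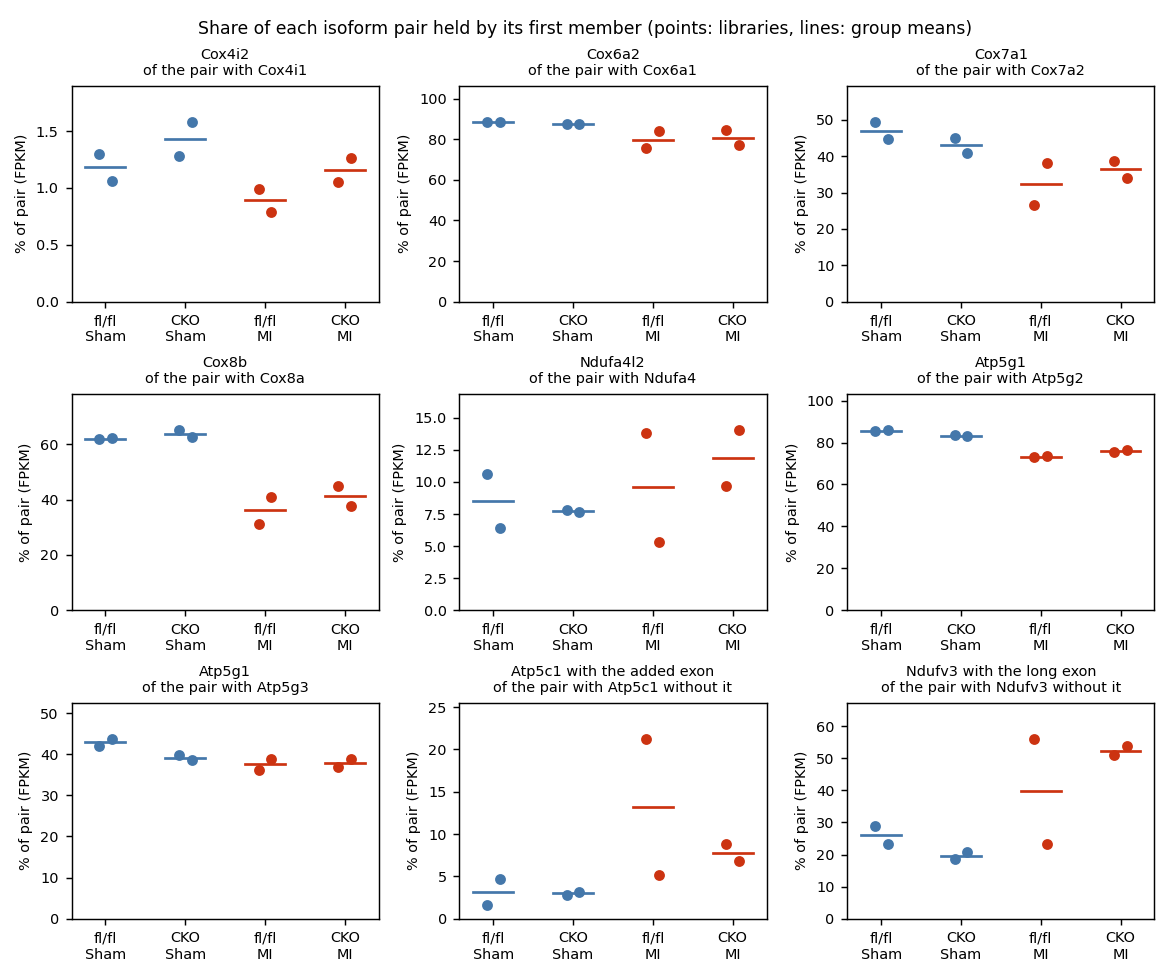
Share of each pair held by its first member, in percent of the pair's FPKM (summed over transcripts for the gene pairs), for 7 pairs of isoform genes and 2 pairs of transcripts. Points are libraries (blue sham, red MI) and lines are group means, with axes starting at 0. Cox8b drops from over 60% in all sham libraries to under 45% in all MI libraries, and the Atp5c1 form with the added exon reaches 21.3% in fl/fl-MI 1.

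The forms of Atp5c1 and Ndufv3 transcripts were compared after the data were seen. Atp5c1 is spliced in muscle without an exon that most tissues keep. That exon lies at chr2:10056770-10056806 on the minus strand of GRCm38 and is 37 bases long. The coding ends of the 2 transcripts, read from GENCODE M21, are shown because the exon changes the last codons, with the bases after the last shared exon junction in capitals.
Atp5c1 without the exon: catctctggggctgctgctctGTAA
Atp5c1 with the exon: catctctggggctgctgctctGGATTAA
The form with the exon was at 6.34, 20.03, 9.29 and 9.44 FPKM in the sham libraries (fl/fl-Sham 1 and 2, CKO-Sham 1 and 2) and at 74.5, 25.4, 40.3 and 26.5 in the MI libraries (fl/fl-MI 1 and 2, CKO-MI 1 and 2). Its share of the pair was 1.65% to 4.67% in sham and 5.21% to 21.3% in MI, with no overlap (exact two-sided permutation p = 0.0286, adjusted p = 0.0571 over the 2 transcript ratios). The form without it stayed at 288 to 409 FPKM in sham and 276 to 461 in MI. Ndufv3, an accessory subunit of the NADH-oxidizing arm, has a short and a long form that differ by 1 exon. The short form read 29.3 to 48.1 FPKM in sham and 8.17 to 23.0 in MI, and the long form read 9.39 to 13.3 and 7.03 to 11.7. The long form's share was 18.5% to 28.8% in sham and 56.1%, 23.4%, 51.0% and 53.8% in the MI libraries, so fl/fl-MI 2 stayed within the sham range (exact permutation p = 0.0571, adjusted p = 0.0571). The long transcript of Ndufv3 has 1582 bases and the short one 493, and the part of length in this share was not tested.

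Within each genotype the decrease was present. In the CKO groups, 51 of 84 subunits fell and 2 rose (Ndufs1 and Uqcrc2), with a median of -1.10, against 11.9% of all genes called lower and 12.8% higher (edgeR). In the fl/fl groups, 38 fell and none rose, with a median of -0.95, against 8.45% lower and 10.1% higher. In the fl/fl groups DESeq2 called 59 lower (13.1% of all genes) and 1 higher (15.7%), a fit with the replicate block 19 lower (5.75%), and a fit on the fl/fl libraries alone 0 lower (0.934%). These counts depended on single libraries. Fits that left out 1 library hold a group of 1 library, so their counts of calls are not given here. In those fits the subunit medians stayed between -1.31 and -0.93 in CKO and between -1.33 and -0.69 in fl/fl.

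No subunit differed between the genotypes in the fit over all 8 libraries. After MI, CKO against fl/fl gave 0 calls among the 84 subunits and 0 among all genes (0% of all genes, edgeR), with a subunit median of -0.07. DESeq2 called no subunit either, against 0.998% of all genes lower and 0.478% higher. At an unadjusted p under 0.05 in edgeR, 1 subunit was counted against 8.31% of all genes. That was Cox6b2, which in fl/fl-MI read 0.775 and 1.26 CPM, and 0.39 and 0.33 in CKO-MI (-1.49 ± 0.43, adjusted p = 0.549). In sham, CKO against fl/fl also gave 0 calls (0.00713% of all genes), with a median of 0.08, while a fit on the sham libraries alone called 2 lower (0.741% of all genes). Here 2 subunits had an unadjusted p under 0.05, against 3.89% of all genes. By edgeR, they were Uqcrc2 (-0.66 ± 0.25, unadjusted p = 0.033) and Ndufa10 (-0.62 ± 0.24, unadjusted p = 0.0378), each with both CKO-Sham libraries below both fl/fl-Sham libraries and each with adjusted p = 1. Both CKO-Sham libraries lay below both fl/fl-Sham libraries for 21 of the 84 subunits, against 23.8% of all genes tested. By complex these were 9 of 36 in complex I, all 4 in complex II (median -0.29), 4 of 9 in complex III, 0 of 18 in complex IV and 4 of 17 in complex V. In the test of whether MI acted differently in the genotypes, 0 subunits passed (0% of all genes), 2 had an unadjusted p under 0.05 (Cox6b2 and Ndufa2) against 8.49% of all genes, and the median was -0.12. DESeq2 called no subunit in sham (0.0998% of all genes lower and 0.143% higher) or in the interaction (0.506% and 0.428%). Uqcrc2, which rose in CKO (0.88 ± 0.25, adjusted p = 0.0426, edgeR) and not in fl/fl (0.09 ± 0.25, adjusted p = 0.821), did not pass the test of that difference (0.79 ± 0.35, adjusted p = 0.604).

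**Figure D5:**
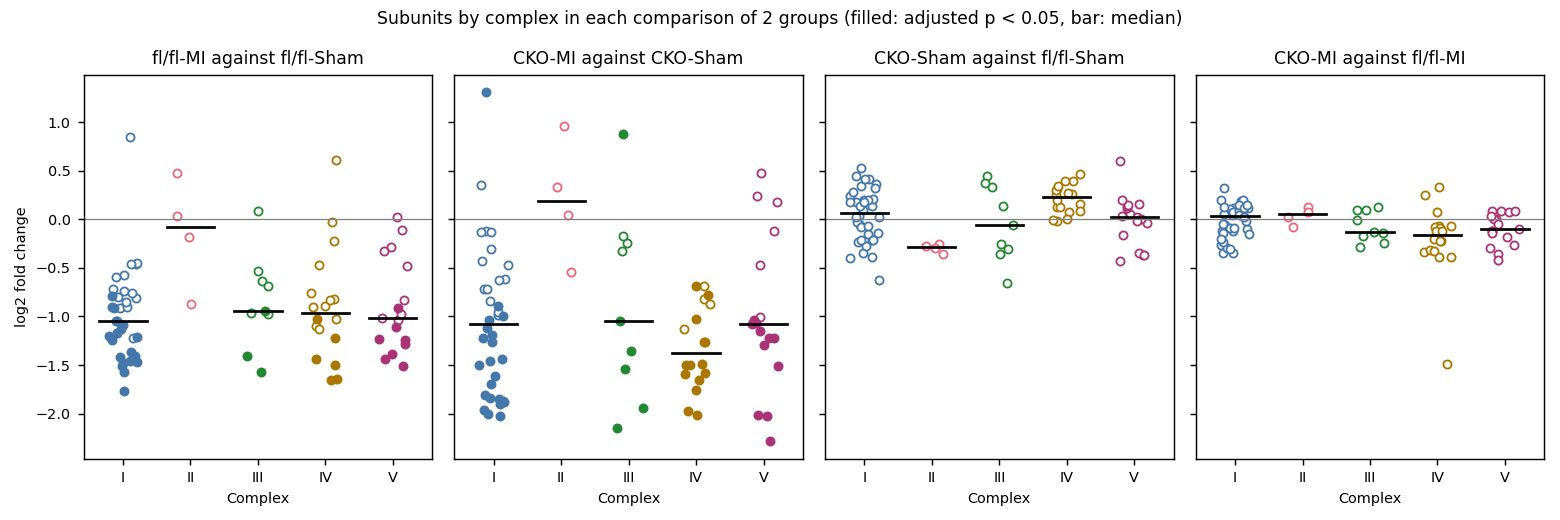
Log2 fold change of each tested subunit by complex in 4 comparisons of 2 groups with 2 libraries each. Filled points passed an adjusted p of 0.05 and bars are medians. The 2 left panels (MI against sham) lie mostly below 0 except complex II, and the 2 right panels (CKO against fl/fl) lie around 0 with no filled point. The panels share libraries.

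The genotype comparisons also carried the length trend. In sham, CKO against fl/fl had medians of 0.24 for subunits up to 700 bases, 0.03 for those over 700 and up to 1200 and -0.29 for longer ones, with rho of -0.68 over the 84 subunits and -0.07 over all genes. Spread between the 2 libraries of a group was of the same order. In fl/fl-MI, 83 of 84 subunits were higher in replicate 2 than in replicate 1, by a median of 0.65 on the log2 scale, while all genes tested had a median of -0.01. In CKO-MI, 3 of 84 were higher in replicate 2 (median -0.38), in CKO-Sham 4 of 84 (-0.37), and in fl/fl-Sham 77 of 84 (0.28). The sign of the genotype median after MI changed with the library left out, at -0.31 without fl/fl-MI replicate 1, -0.25 without CKO-MI replicate 1, 0.14 without CKO-MI replicate 2 and 0.33 without fl/fl-MI replicate 2. With the length trend of all genes removed, the medians were 0.07 after MI, -0.01 in sham and 0.12 for the interaction. The subunits still differed by length class. From the shortest to the longest class, the medians were then -0.02, 0.10 and 0.10 after MI and 0.11, -0.03 and -0.28 in sham. For the interaction they were -0.14, 0.21 and 0.40.

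Markers of cell types moved with the same libraries. The sum over 15 cardiomyocyte markers was 46804 to 53384 CPM in sham and 35547, 59569, 62331 and 40940 in fl/fl-MI 1, fl/fl-MI 2, CKO-MI 1 and CKO-MI 2. Of these markers, 4 fell and 5 rose after MI, with a median of 0.08. For this and the lists below, 18.3% of all genes tested were called lower and 22% higher. The sum over 10 fibroblast markers was 1607 to 1798 CPM in sham and 7285, 2666, 3715 and 6017 in the same MI libraries, and 9 rose. The 2 MI libraries with the lower subunit levels, fl/fl-MI 1 and CKO-MI 2, thus had the lower cardiomyocyte and the higher fibroblast sums. Of 8 endothelial markers 7 fell (2033 to 2253 against 691 to 1227 CPM), of 7 mural markers 2 fell, of 10 macrophage markers 4 rose, and of 5 erythroid markers 5 rose. The atrial sum was 156 to 614 CPM in sham, 20125 in fl/fl-MI 2 and 2555 to 4463 in the other MI libraries, and 1 of 6 atrial markers rose. Of 3 brown adipocyte markers tested 2 rose (47.1 to 51.0 against 116 to 171 CPM), and Ucp1 was at 0 in at least 1 library. Ppargc1a, given below with the regulators, was among the brown adipocyte markers that rose and adds to this sum. Of 4 skeletal muscle markers 1 fell, with Myh1, Myh2 and Myh4 at 0 in at least 1 library. No white adipocyte, lymphocyte or neutrophil marker passed, and Cd3d and Ly6g were at 0 in at least 1 library. In bulk tissue, fewer cardiomyocytes and less of an mRNA in each of them cannot be told apart, and the part of cell make-up in the subunit changes was not tested.

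The mRNAs that the mitochondrial genome encodes fell with the nuclear subunits. All 13 were lower, with a median of -1.61 and a range from -2.17 (mt-Nd3) to -1.05 (mt-Nd4l). Other genes of the pathway fell and rose, against 18.3% of all genes tested called lower and 22% higher. Of 15 complex I assembly factors 3 fell and 2 rose (median -0.09), of 6 complex III factors 2 fell and 1 rose (0.11), of 20 complex IV factors 2 fell and 6 rose (-0.05), and of 4 complex V factors and regulators 1 fell and 1 rose (0.06). Taco1, a translational activator of mitochondrial Co1, rose by 1.85 ± 0.20 on the log2 scale (adjusted p = 0.00112). Cox17, the copper chaperone of complex IV, fell (-1.53 ± 0.15). Of 15 electron carriers and ubiquinone synthesis enzymes 2 fell and 1 rose (-0.09), and Cycs, cytochrome c, did not pass (-0.26 ± 0.15, adjusted p = 0.205). Of 17 genes taken as markers of mitochondrial content 3 fell and 5 rose, with a median of 0.23.

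Among 16 regulators of mitochondrial gene expression, 8 rose and 2 fell, with a median of 0.44, against 22% of all genes tested called higher and 18.3% lower. Ppargc1a, the coactivator PGC-1 alpha that drives mitochondrial biogenesis, read 31.1 and 29.0 CPM in fl/fl-Sham, 26.4 and 24.4 in CKO-Sham, 68.2 and 110 in fl/fl-MI, and 79.8 and 43.6 in CKO-MI, with no overlap (1.42 ± 0.23, adjusted p = 0.00396, edgeR). Its relatives Ppargc1b (1.19) and Pprc1 (0.86), the nuclear receptors Esrrg (1.69), Esrrb (0.94) and Ppara (2.11), the mitochondrial transcription factor Tfb2m (0.54) and the muscle regulator Perm1 (0.78) also rose. Gabpb1, a subunit of the GABP factor, and Polrmt, the mitochondrial RNA polymerase, fell (-0.51 and -0.35). Nrf1 (-0.11), Gabpa (0.05), Esrra (-0.18), Tfam (0.22), Tfb1m (0.34) and Yy1 (-0.15) did not pass. The transcripts of many of these regulators are long, and length was not separated from their change.

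Promoter letters known from respiratory genes were counted in the 250 bases before each start site (RefSeq, GRCm38.p6), where 68 of the 85 subunits had an entry. The NRF1 motif, GCGCA and GCGC with any base between, on either strand, stood in 12 of 68 (17.6%), against 3.77% of all 32536 promoters. The ETS motif CCGGAAG, read by GABP, stood in 11 (16.2% against 6.95%), the ERR motif AAGGTCA in 5 (7.35% against 4.09%) and the MEF2 pattern, CTA and TAG with any 4 bases between, in 1 (1.47% against 3.22%). Subunits with the NRF1 letters spanned changes after MI from -1.84 (Ndufs6) to 0.72 (Sdha), with a median of -1.16 against -1.03 for the 56 without. For ETS the medians were -1.02 with and -1.05 without. A promoter with NRF1 and ERR letters, 1 with ERR alone and 2 with ETS are printed, all of subunits that fell and all with 16 or fewer annotated exon bases in the window. Motif letters are in capitals, and the minus-strand windows read in the direction of the gene.
Ndufs5, chr4:123718187-123718436, minus strand: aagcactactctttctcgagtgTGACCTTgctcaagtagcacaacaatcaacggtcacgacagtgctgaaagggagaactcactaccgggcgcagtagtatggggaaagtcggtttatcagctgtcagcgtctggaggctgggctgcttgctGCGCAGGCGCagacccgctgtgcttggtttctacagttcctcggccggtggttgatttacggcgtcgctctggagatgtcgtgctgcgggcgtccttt
Ndufb2, chr6:39592315-39592564, plus strand: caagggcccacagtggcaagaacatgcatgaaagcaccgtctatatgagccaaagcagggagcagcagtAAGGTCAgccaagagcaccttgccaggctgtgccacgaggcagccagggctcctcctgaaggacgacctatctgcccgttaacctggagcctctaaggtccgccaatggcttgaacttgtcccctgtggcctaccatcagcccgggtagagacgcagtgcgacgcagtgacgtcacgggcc
Uqcr11, chr10:80406822-80407071, minus strand: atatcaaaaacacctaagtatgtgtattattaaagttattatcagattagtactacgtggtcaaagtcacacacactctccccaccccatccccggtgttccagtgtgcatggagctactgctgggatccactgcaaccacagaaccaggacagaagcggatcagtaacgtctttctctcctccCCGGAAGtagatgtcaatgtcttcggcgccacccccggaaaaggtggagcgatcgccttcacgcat
Atp5e, chr2:174464102-174464351, minus strand: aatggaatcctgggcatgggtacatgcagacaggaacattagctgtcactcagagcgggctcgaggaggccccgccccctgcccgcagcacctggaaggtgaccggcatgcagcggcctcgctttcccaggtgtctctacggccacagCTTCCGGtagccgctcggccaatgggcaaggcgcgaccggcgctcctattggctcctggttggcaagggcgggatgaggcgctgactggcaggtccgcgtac

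The 4 processed pseudogenes share sequence with their parent genes, so the way reads were divided between them is uncertain. Ndufb4c (-0.93 ± 0.24, adjusted p = 0.0207, edgeR) and Cox6c2 (-1.33 ± 0.39, adjusted p = 0.0305) fell, as did their parents Ndufb4 (-1.09) and Cox6c (-1.39). Ndufs6b did not pass (-1.63 ± 0.65, adjusted p = 0.0836), and Ndufa11b did not pass the filter (mean FPKM 0.0153). Ndufb1-ps, outside the rule, read 8.60 to 13.3 CPM in sham and 2.71 to 5.52 in MI (-1.46 ± 0.25, adjusted p = 0.00474).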

How the data were processed

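RNA sequencing of mouse myocardium was analysed for 8 libraries, 2 in each of 4 groups set by the deposited labels. The authors prepared poly(A) libraries and sequenced paired ends. Reads were trimmed with cutadapt 1.9 and checked with FastQC, per the labels' processing notes, and the aligner and counter are not given in the sources used here. The deposited estimated counts per gene and transcript are whole numbers without normalization, in steps of about 4 per read pair. The deposited FPKM are normalized by the authors to length and library size. Total counts ranged from 73821747 to 88117573 per library.

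Counts were tested with edgeR 4.0.16 (quasi-likelihood, TMM scaling, group means over all 8 libraries, mean FPKM of at least 0.5, 14028 genes, adjusted p under 0.05), and the script was tested on simulated data. Log2 ratios of isoforms were compared by exact two-sided permutation tests. Length is the FPKM-weighted mean over transcripts. Alternatives used limma 3.58.1 and DESeq2 1.42.0, other scalings, filters and pseudocounts, counts divided by 4, a replicate block and each library left out. A loess length trend (span 0.5) was added after seeing the data. Members and gene lists were chosen with earlier results of these data known. Named subunits were those of the catalytic and core and isoform lists, the 3 lowest and 2 highest per complex after MI, the 3 with the smallest p in each genotype comparison, those that did not pass the filter, the tested regulators and Piezo1. Other genes were named after their values were seen. Some items are not reported here by name, though counts over all subunits include them. Sequences came from RefSeq and GENCODE M21.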

Additional observations from a re-analysis of the deposited data

How the results depend on the processing

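The subunit decrease after MI kept its direction under DESeq2, RLE scaling, TMM without mitochondrially encoded genes, other filters and counts divided by 4. DESeq2 called 66 lower, against 21.7% of all genes. Leaving out 1 library gave 50 to 74 lower, 1 to 3 higher and a median of -1.24 to -0.94. In CKO these ranges were 0 to 64, 0 to 3 and -1.31 to -0.93, and in fl/fl 0 to 70, 0 to 2 and -1.33 to -0.69. Between genotypes they were 0 calls throughout, with medians of -0.31 to 0.33 after MI, -0.14 to 0.26 in sham and -0.34 to 0.21 for the interaction. DESeq2 called 59 lower and 1 higher in fl/fl (13.1% and 15.7% of all genes). Fits on only the libraries compared called 0 lower in fl/fl (0.934% of all genes), and 2 lower in CKO-Sham against fl/fl-Sham (0.741%). Length offsets gave 1 higher in the mean (20.1% of all genes), 28 lower in CKO (10.8%) and 27 lower in fl/fl (8.56%). Requiring a 2-fold change left 1 higher in the mean and 1 in CKO, with adjusted and unadjusted p alike. Of all genes, 7.28% (adjusted) and 7.91% (unadjusted) were higher in the mean, and 5.77% and 7.63% in CKO. Unadjusted p then gave 1 lower between the genotypes after MI (2.72% of all genes) and 1 in the interaction (2.93%).

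Replicate numbers did not pair the samples: deviations of same-numbered libraries correlated at -0.20 to 0.05 over 6 pairs of groups. With the replicate block, 61 were lower and 1 higher in the mean, 41 and 1 in CKO, and 19 and 0 in fl/fl. Of all genes, 16.7% were then lower and 19.6% higher in the mean, 9.20% and 9.89% in CKO, and 5.75% and 6.29% in fl/fl.

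On log2 (FPKM + 1), limma called 42 lower and 9 higher in the mean, 31 and 8 in CKO, and 16 and 4 in fl/fl, where 5.97% of all genes were lower and 50.1% higher in the mean, 3.81% and 33% in CKO, and 3.24% and 34.2% in fl/fl. On log2 (FPKM + 0.1) these were 42 and 9, 33 and 8, and 18 and 3 (all genes 5.88% and 50.8%, 3.8% and 34.6%, and 3.29% and 35.5%). Sdhc, Cox6a1 and Ndufa10 turned to 0.45, 0.077 and 0.48, and Cox6a1 to 0.080 with the smaller pseudocount. On log2 (TPM + 1) the counts were 13 and 27, 12 and 21, and 1 and 20 (all genes 1.98% and 76.7%, 1.22% and 61.7%, and 1.33% and 65.7%). Medians turned to 0.071 for all subunits in the mean, 0.031 in CKO and 0.16 in fl/fl. For complexes I, III and V they turned to 0.030, 0.12 and 0.044 in the mean, 0.051, 0.10 and 0.049 in CKO, and 0.084, 0.19 and 0.074 in fl/fl, where complex IV was at 0.16. Named genes that turned were Ndufs3 (0.74), Ndufs8 (0.22), Ndufv1 (0.81), Ndufv2 (0.36), Sdhb (0.40), Sdhc (1.02), Uqcrfs1 (0.75), Cyc1 (0.66), Cox5a (0.28), Atp5c1 (0.81), Cox6a1 (0.64), Cox6b1 (0.17), Cox6b2 (0.46), Cox7a2l (0.55), Cox7b (0.12), Cox8a (0.78), Ndufa4l2 (0.17), Atp5g2 (0.71), Atp5g3 (0.023), Ndufa10 (1.05) and Ndufb5 (0.36). These scales move the median of all genes by 0.41, 0.56 and 0.92.

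Summed levels of complexes I to V, as log2 of MI over sham, were 0.19, 1.14, 0.47, -0.053 and 0.73 in TPM, -0.68, 0.14, -0.48, -1.15 and -0.24 in TMM-scaled CPM, and -0.71, 0.11, -0.51, -1.19 and -0.27 in CPM scaled without mitochondrially encoded genes. The cause was not tested.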
